A study of Mus musculus with 9 samples.

Results

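The transcripts described here are those of 10 genes of the AP-1 and immediate early response, measured by RNA-seq in PT-22 cells, a mouse kidney line labelled as proximal tubule. They were taken from the count and TPM tables by gene symbol, 10 of 55487 genes: Fos, Fosb, Fosl1, Fosl2, Jun, Junb, Jund, Egr1, Ier2 and Ier3. All of them passed the filter on low counts that left 16353 genes for testing. There are 9 libraries in 3 groups, each with replicates A, B and C. The day 0 group was untreated, the day 6 group had received 4-hydroxytamoxifen at 1 uM, and the day 12 group had then received doxycycline at 1 ug/ml every 2 days for 6 more days. Every group, the untreated one included, has the genotype Pax2-/-, Pax8fl/fl, Rosa-CreERT2 and carries Pax8 in pTRIPZ, a doxycycline-inducible lentiviral vector. Cre fused to the tamoxifen-binding domain is expressed from the Rosa locus and removes the floxed Pax8 after 4-hydroxytamoxifen. The cells are a modified line grown in medium with 3% serum. The 9 libraries include no vehicle control, no later untreated time point and no day 12 culture kept off doxycycline, so the effects of time, of either drug and of PAX8 cannot be told apart. Nothing in the labels says that the replicates of a group come from separate cultures, and the p-values measure a spread between libraries that may be technical. The time from the last change of medium or drug to lysis is also not given in the sources used here.

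AP-1 is a transcription factor built as a dimer of basic leucine zipper proteins. FOS proteins (Fos, Fosb, Fosl1, Fosl2) cannot pair with one another and need a JUN protein (Jun, Junb, Jund), whereas JUN proteins also pair among themselves and with members of the ATF and MAF families. Growth factors, cytokines and stress act through MAP kinases, ternary complex factors and serum response factor to switch on Fos, Egr1 and other immediate early genes within minutes, without new protein synthesis, and their mRNAs are short-lived. Fosl1 and Fosl2 are usually made later and persist longer, and Jund is the family member with the steadiest expression. Egr1 is a zinc finger transcription factor. Ier2 is a nuclear protein and Ier3 a regulator of survival and ERK signalling, neither of them a classical DNA-binding factor, so that "transcription factor" covers these last members loosely. In kidney tubules the set is known for its response to ischaemic and toxic injury.

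RefSeq windows on GRCm38.p6, running from 250 bases before to 50 after the start, were given for 7 of the 10 members (Fos, Fosb, Fosl2, Jun, Junb, Jund and Ier3). The RefSeq starts of Fosb, Fosl2, Junb, Jund and Ier3 differ from those of the GENCODE gene models. Both strands were searched for the AP-1 site TGACTCA, the cyclic AMP response element TGACGTCA and its core TGACG, the GC box GGGCGG, the CArG box bound by serum response factor and the NF-kB site. The element TGACATCA, known from the proximal Jun promoter and bound there by Jun with ATF2, was added after the windows had been seen. The 120 bases from -150 to -31 are shown for the 4 members in which TGACG or TGACATCA was found, with those letters in capitals. They are shown for reading beside the values, and a link between motif and level was not tested. These 4 members rose between day 6 and day 12. Of the members whose windows hold neither motif, Jund and Ier3 rose as well and Fosl2 was not called. The stretches are chr12:85473740-85473859 (plus strand) for Fos, chr7:19310076-19310195 (minus) for Fosb, chr4:95052253-95052372 (minus) for Jun and chr8:84978779-84978898 (minus) for Junb, each printed 5′ to 3′ in the direction of the gene.
Fos: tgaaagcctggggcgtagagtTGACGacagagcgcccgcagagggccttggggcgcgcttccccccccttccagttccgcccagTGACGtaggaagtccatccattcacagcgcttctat
Fosb: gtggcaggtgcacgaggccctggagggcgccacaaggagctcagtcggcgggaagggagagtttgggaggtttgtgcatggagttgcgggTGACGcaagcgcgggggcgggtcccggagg
Jun: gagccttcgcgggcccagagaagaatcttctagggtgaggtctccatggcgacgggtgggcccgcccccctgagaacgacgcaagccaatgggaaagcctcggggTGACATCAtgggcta
Junb: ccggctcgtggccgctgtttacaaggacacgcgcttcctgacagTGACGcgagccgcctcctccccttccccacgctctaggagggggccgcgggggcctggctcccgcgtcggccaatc
Fos held TGACG at -129 to -125 and again at -66 to -62, Fosb at -60 to -56 and Junb at -106 to -102, and Jun held TGACATCA at -45 to -38. Of all 32851 promoter windows of this length, 20.8% held TGACG, which is part of TGACGTCA, and 3.62% held TGACATCA. None of the 7 windows held TGACTCA (5.2% of all windows), the complete TGACGTCA (1.79%) or a CArG box (1.63%). The GC box, present in 35.7% of all windows, was found in Fos, Fosb, Fosl2, Jun and Ier3. An NF-kB site, present in 5.8%, was found in Fos, Fosb and Fosl2. A match describes the letters in these windows and is not a measured binding site, and the serum response element of Fos lies further upstream than the window reaches.

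Total counts per library ran from 56398623 to 86767334. Levels are given as CPM, counts scaled by library size and TMM, and a library's single count equals 0.0115 to 0.0177 CPM before TMM. Pax8, the targeted gene, stood at 291 ± 1.7, 405 ± 5.9 and 496 ± 7.8 CPM at days 0, 6 and 12 (SD, n = 3 each) and so was higher, not lower, in the libraries labelled as treated to remove it. A count over the whole gene does not show whether the floxed exons are gone and includes reads from the vector, so the groups are called by their day and no direction given here is a measured response to PAX8. Pax2, labelled -/- in every group, also had counts, at 31.9 ± 2.4, 46.9 ± 3.2 and 52.3 ± 3.2 CPM. A count over the gene cannot check that label either. Of 18 proximal tubule markers 8 passed the filter. The transporters Slc34a1, Slc5a12 and Slc22a6 were at 0 in all 9 libraries, whereas Lrp2 (megalin) stood at 391, 58.7 and 71.7 CPM and Aqp1 at 119, 324 and 328. The summed level of these markers ran from 626 to 725 CPM at day 0, 521 to 560 at day 6 and 538 to 597 at day 12. Markers of other cells moved as well: summed stromal markers (6 of 8 passed) ran from 8.84 to 9.4, 30.7 to 32.1 and 36.4 to 43.6 CPM, with Pdgfra and Lum near 0. Among them Acta2 stood at 0.92, 23.6 and 28 CPM, whereas Dcn had its lowest level at day 6 (4.92, 0.44 and 5.08). Endothelial markers (3 of 7, mostly Flt1) ran from 2.88 to 3.49, 13.9 to 14.6 and 9.5 to 10.3 with Tie1 at 0, immune markers (4 of 8) from 41 to 46.3, 24.4 to 28.2 and 28.3 to 29.3 with Cd3e at 0, and podocyte markers (4 of 6) from 439 to 450.2, 281 to 287 and 367 to 388 with Ptpro at 0. The immune sum was mostly Csf1r (25.5, 7.95 and 13 CPM) and Cd68 (15.7, 15.7 and 13.9). Lyz2 went the other way, at 0.34, 2.77 and 1.7 CPM. None of 6 loop and distal markers and 1 of 8 collecting duct markers passed. The share of counts from the mitochondrial genome was 6.79% ± 0.14, 7.1% ± 0.072 and 2.83% ± 0.99, and day 12 replicate B stood apart at 3.96% beside 2.43% and 2.1%. Whether these shifts had a part in the values of the members was not tested, except that leaving the mitochondrial genes out of the counts gave identical numbers of members called.

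The members did not move together at day 6, and most of them rose between day 6 and day 12. Between day 0 and day 6, Fosl1, Junb, Jun and Fos rose while Jund, Fosl2, Fosb, Ier3 and Ier2 fell and Egr1 did not pass the test, which makes 4 higher and 5 lower of 10 (edgeR quasi-likelihood F test, adjusted p under 0.05 by Benjamini-Hochberg over all genes tested). In that comparison 64.9% of all genes tested passed, 33.5% higher and 31.4% lower, so calls in both directions were common among genes at large. Between day 6 and day 12, 8 members rose, Fosl1 fell and Fosl2 did not pass, where 45.3% of all genes passed, 22.6% higher and 22.7% lower. Against day 0, day 12 was higher for 6 members (Junb, Jun, Fos, Egr1, Ier2 and Ier3), lower for Fosl2 and Jund, and not called for Fosb and Fosl1, where 66.4% of all genes passed, 34.7% higher and 31.7% lower. Those 6 members were at day 12 above both earlier days by the test, a pattern that 9.24% of all genes showed. The comparisons share groups, so their counts are not independent of one another. The median log2 fold change of the 10 members was -0.19, 0.55 and 0.37 in the order day 6 against day 0, day 12 against day 6 and day 12 against day 0, beside 0.022, 0.0084 and 0.025 for all genes.

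**Figure D1:**
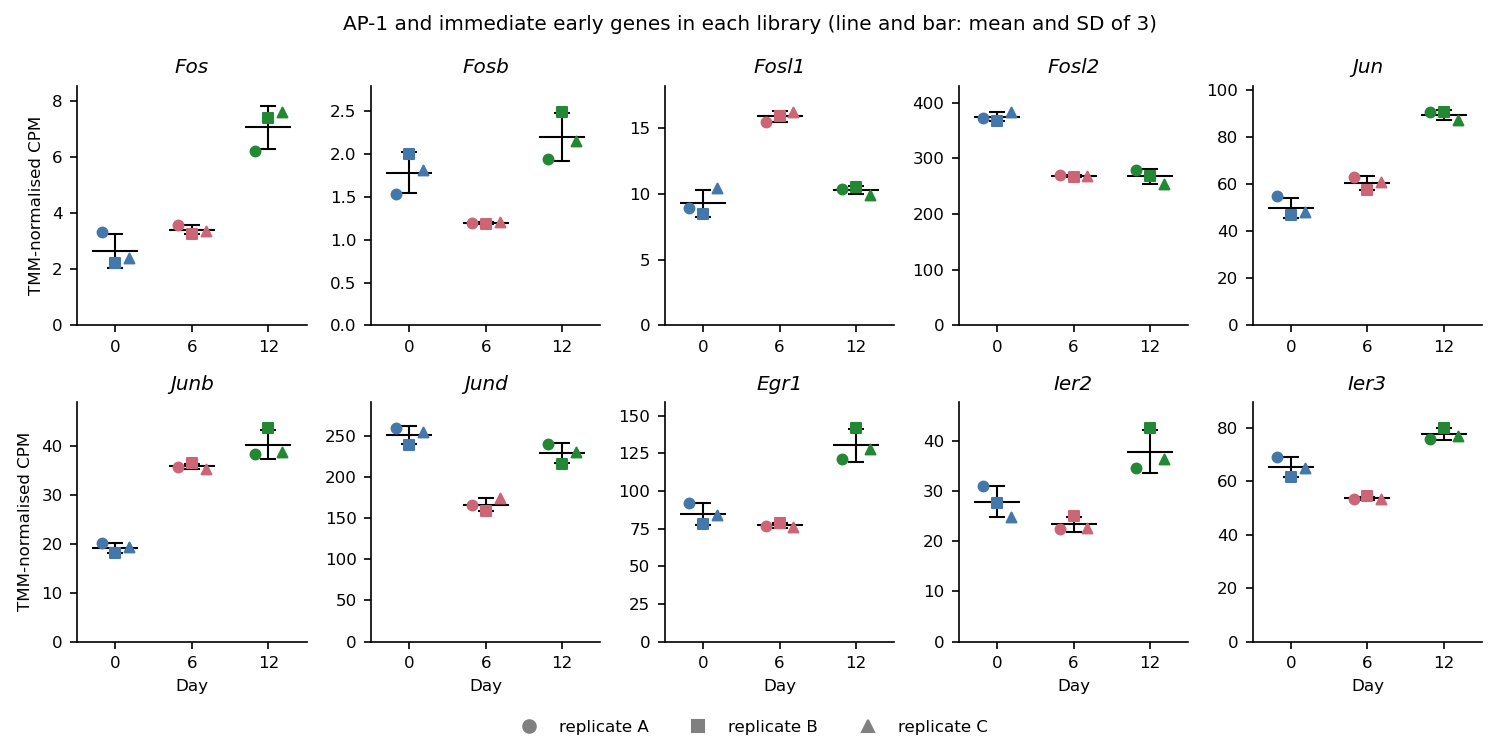
TMM-normalised CPM (vertical axes) of the 10 members in each of the 9 libraries by day (horizontal axes); points are libraries (circle A, square B, triangle C), and line and bar are the mean and SD of 3 libraries. Fos, Jun, Junb, Egr1, Ier2 and Ier3 are highest at day 12 in all 3 libraries, Fosl1 is highest at day 6, and Fosl2 is highest at day 0.

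**Figure D2:**
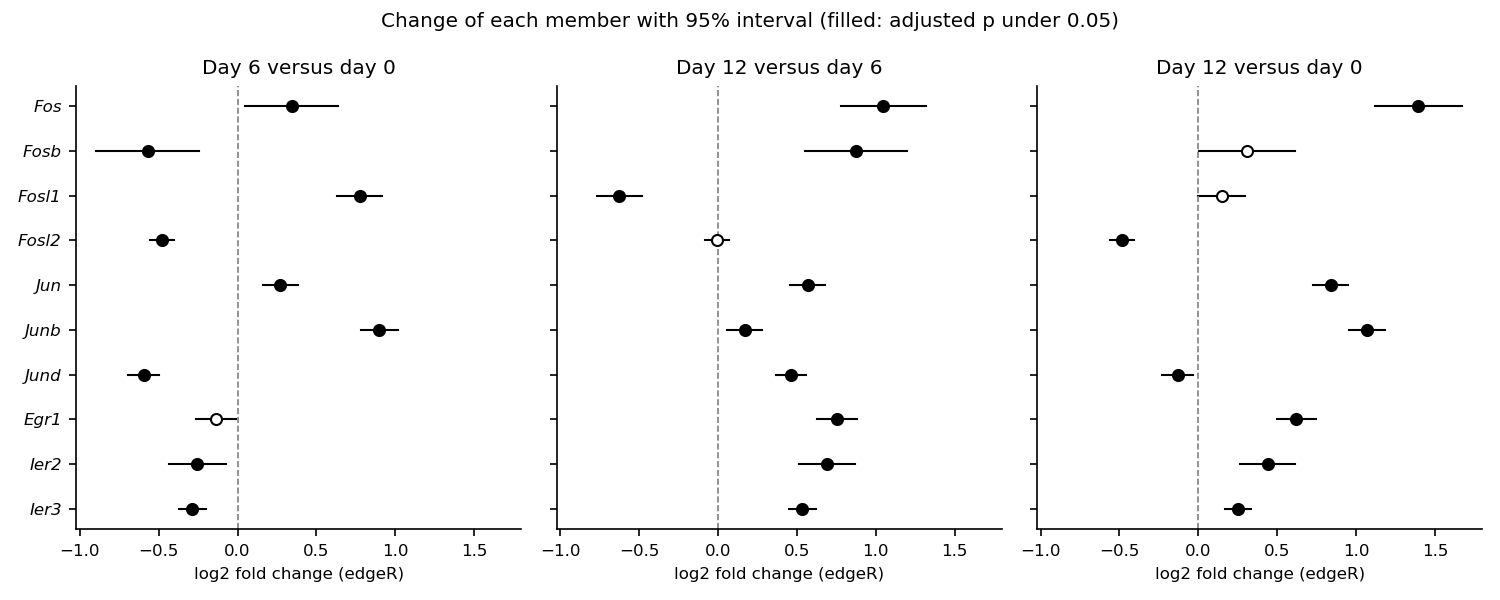
Log2 fold change (horizontal axis) of each member in the 3 comparisons, with 95% intervals from the quasi-likelihood fit of all 9 libraries; filled points have an adjusted p under 0.05. Between day 12 and day 6, 8 members lie to the right of 0, Fosl1 to the left, and the interval of Fosl2 spans 0.

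Fos, the inducible founding member of the family (ENSMUSG00000021250, GRCm38 chromosome 12, 85473890 to 85477273, plus strand), was measured at 3.33, 2.22 and 2.41 CPM in day 0 replicates A, B and C, at 3.58, 3.27 and 3.37 at day 6, and at 6.19, 7.37 and 7.61 at day 12. Day 12 stood above every earlier library, while the highest day 0 library reached into the range of day 6. In bulk libraries a change in the number of cells that express a gene and a change in RNA per cell cannot be told apart. Fos rose 2.07-fold from day 6 to day 12 (log2 fold change 1.05 ± 0.13, SE; edgeR, adjusted p = 1.00e-05) and was 2.62-fold above day 0 (1.39 ± 0.13, adjusted p = 1.64e-07). The smaller step from day 0 to day 6 (0.34 ± 0.14, edgeR adjusted p = 0.0399) was lost when any of 5 libraries was left out: day 0 replicate B (0.24, adjusted p = 0.167) or C (0.137), or day 6 replicate A (0.113), B (0.0612) or C (0.0673).

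Fosb, a close relative of Fos that gives rise to the long-lived splice form deltaFosB, was the scarcest member (ENSMUSG00000003545, chromosome 7, 19302696 to 19310051, minus strand). It stood at 1.53, 2 and 1.82 CPM at day 0, 1.2, 1.19 and 1.21 at day 6, and 1.94, 2.49 and 2.15 at day 12. Day 6 was the lowest group without overlap, and the outer days overlapped. Fosb fell by 0.57 ± 0.15 on the log2 scale to day 6 (edgeR, adjusted p = 0.00417) and rose by 0.88 ± 0.15 to day 12 (0.000237). Day 12 against day 0 gave 0.31 with a 95% interval of 0.0022 to 0.61 and an edgeR adjusted p of 0.0707, not called. It was called without day 0 replicate B (0.0442) or without day 12 replicate A (0.0426), and with limma on log2(TPM + 1) (0.3, adjusted p = 0.00161) and log2(TPM + 0.1) (0.58, adjusted p = 0.00527).

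Fosl1 (FRA-1), which lacks the strong transactivation domain of Fos and is linked to migration and mesenchymal programmes, was the only FOS gene with its peak at day 6 (ENSMUSG00000024912, chromosome 19, 5447547 to 5455946, plus strand). Its CPM were 8.95, 8.52 and 10.4 at day 0, 15.5, 16 and 16.3 at day 6, and 10.4, 10.5 and 9.96 at day 12. All day 6 libraries lay above all others, and the outer days overlapped. Fosl1 rose 1.71-fold to day 6 (0.77 ± 0.067, edgeR adjusted p = 6.61e-08) and fell 1.54-fold from day 6 to day 12 (-0.63 ± 0.067, adjusted p = 2.97e-06). Day 12 against day 0 was not called (0.15, 95% interval 0.00023 to 0.3, edgeR adjusted p = 0.0722), but it was without day 0 replicate C (0.24, adjusted p = 0.00363) and with limma on log2(TPM + 1) (0.3, adjusted p = 0.00212) and log2(TPM + 0.1) (0.32, adjusted p = 0.00168). Of its exon bases 57.2% overlap Ccdc85b on the other strand, and the strand setting of the counting is not given in the sources used here. Ccdc85b itself stood at 21.9, 29.2 and 27.3 CPM, so that it also rose to day 6 (0.42 ± 0.049, adjusted p = 2.18e-06), but it did not pass the test from day 6 to day 12 (-0.099 ± 0.049, adjusted p = 0.113).

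Fosl2 (FRA-2), the late and stable FOS protein, had the most counts of any member (ENSMUSG00000029135, chromosome 5, 32135801 to 32157842, plus strand). It stood at 373, 367 and 384 CPM at day 0, 270.3, 267 and 269 at day 6, and 279.9, 269 and 254 at day 12. Every day 0 library lay above every later one, and the later days overlapped. Fosl2 fell 1.39-fold to day 6 (-0.48 ± 0.036, edgeR adjusted p = 1.03e-08) and was not called between day 12 and day 6, with a log2 difference of -0.0055 (95% interval -0.082 to 0.071, adjusted p = 0.918). On the TPM scale, which the authors computed per transcript length, its level was 78.1 ± 1.5, 58 ± 0.81 and 67.1 ± 3.8, and limma on log2(TPM + 1) called day 12 above day 6 by 0.21 (adjusted p = 0.00187). On that scale the median of all genes was itself 0.16 higher at day 12 than at day 6, and 0.19 higher than at day 0.

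Jun, the partner that FOS proteins use most and an autoregulated target of JNK (ENSMUSG00000052684, chromosome 4, 95049034 to 95052222, minus strand), rose at each step. It stood at 54.9, 47 and 48 CPM at day 0, 62.9, 57.3 and 61 at day 6, and 90.6, 90.7 and 87 at day 12. The 3 groups did not overlap at any point. The log2 fold change was 0.27 ± 0.052 to day 6 (edgeR, adjusted p = 0.000291), a further 0.57 ± 0.051 to day 12 (4.98e-07), and 0.84 ± 0.051 over both steps (1.27e-09). The antisense gene Junos overlaps 7.28% of its exon bases and stood at or below 0.35 CPM as a group mean.

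Junb, a JUN protein known to restrain Jun and to be induced by cytokines (ENSMUSG00000052837, chromosome 8, 84974484 to 84978718, minus strand), made most of its change by day 6. Its CPM were 20.1, 18 and 19.3 at day 0, 35.7, 36.4 and 35.2 at day 6, and 38.3, 43.7 and 38.6 at day 12. All later libraries were far above day 0, and day 12 sat just above day 6 without overlap. Junb rose 1.86-fold to day 6 (0.9 ± 0.054, edgeR adjusted p = 8.46e-10) and was 2.1-fold above day 0 at day 12 (1.07 ± 0.054, adjusted p = 1.29e-10). The second step was small (0.17 ± 0.051, edgeR adjusted p = 0.0145) and was lost without day 12 replicate B (0.11, adjusted p = 0.0862). Prdx2, which overlaps 7.52% of the exon bases of Junb on the other strand, stood at 211, 214 and 201 CPM.

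Jund, which is expressed in resting cells and slows growth (ENSMUSG00000071076, chromosome 8, 70698949 to 70700616, plus strand), dipped at day 6. It stood at 260.1, 239.6 and 255 CPM at day 0, 167, 159 and 174 at day 6, and 241, 216 and 231 at day 12. Every day 6 library lay below all others, and the outer days overlapped. Jund fell 1.51-fold to day 6 (-0.6 ± 0.045, edgeR adjusted p = 1.23e-08) and rose 1.38-fold to day 12 (0.46 ± 0.045, adjusted p = 1.15e-06). The remaining deficit at day 12 against day 0 (-0.13 ± 0.045, edgeR adjusted p = 0.0165) turned with the scale: on log2(TPM + 1) it was 0.12 (limma, adjusted p = 0.109), with TPM of 234 ± 7.8 at day 0, 159 ± 8 at day 6 and 254 ± 20.2 at day 12. It was also lost with upper-quartile scaling (adjusted p = 0.054) and without day 0 replicate A (0.0775) or day 12 replicate B (0.0766). The antisense model Gm11175 covers 52.6% of the exon bases of Jund and was near 0, at most 0.061 CPM as a group mean.

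Egr1, the zinc finger factor induced through serum response factor (ENSMUSG00000038418), stood at 92.2, 77.7 and 83.9 CPM at day 0, 76.5, 78.8 and 76.2 at day 6, and 121, 142 and 128 at day 12. Day 12 lay above both earlier days, which overlapped. Egr1 rose 1.69-fold from day 6 to day 12 (0.75 ± 0.059, edgeR adjusted p = 1.19e-07) and was 1.54-fold above day 0 (0.62 ± 0.059, adjusted p = 1.96e-07). Day 6 against day 0 was not called (-0.13, 95% interval -0.26 to -0.0071, adjusted p = 0.0603), but DESeq2 called it lower (-0.15, adjusted p = 0.0173), as did the fits with no filter on low counts (0.000594) and with these groups alone (0.0141). So did the edgeR fits without day 0 replicate B (adjusted p = 0.0126), day 6 replicate B (0.0482), day 12 replicate A (0.0432) or day 12 replicate B (0.0233).

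Ier2, a nuclear immediate early protein (ENSMUSG00000053560, chromosome 8, 84661331 to 84662852, minus strand), stood at 31.1, 27.7 and 24.9 CPM at day 0, 22.4, 25.1 and 22.7 at day 6, and 34.5, 42.6 and 36.4 at day 12. Day 12 was the highest group without overlap, and the earlier days overlapped at their edge. Ier2 rose 1.61-fold from day 6 to day 12 (0.69 ± 0.083, edgeR adjusted p = 8.58e-06) and was higher than at day 0 (0.44 ± 0.081, adjusted p = 0.000209). Its fall to day 6 (-0.25 ± 0.084, edgeR adjusted p = 0.015) was lost on log2(TPM + 1) (0.0613) and without day 0 replicate A (0.105) or day 6 replicate A (0.0643).

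Ier3, also known as IEX-1, a small membrane-anchored protein induced by NF-kB and growth factors (ENSMUSG00000003541, chromosome 17, 35821684 to 35822923, plus strand), followed the same course with a tighter spread. It stood at 69.1, 61.7 and 65 CPM at day 0, 53.2, 54.3 and 53.2 at day 6, and 75.8, 80 and 77.1 at day 12. The 3 groups did not overlap. Ier3 fell by 0.29 ± 0.039 on the log2 scale to day 6 (edgeR, adjusted p = 1.12e-05), rose by 0.54 ± 0.039 to day 12 (6.09e-08) and ended 0.25 ± 0.039 above day 0 (4e-05).

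Groups did not overlap for 7 of the 10 members between day 6 and day 0, for 9 between day 12 and day 6 and for 7 between day 12 and day 0, where 68.9%, 53.9% and 69.7% of all genes tested did not. No test sets the members against other genes, because they were chosen with results of these data known.

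Levels between genes can be compared only per length, on the TPM scale. At day 0 the order was Jund (234 TPM), Ier3 (99.3), Fosl2 (78.1), Egr1 (35.8), Ier2 (29), Jun (22.2), Junb (16.2), Fosl1 (8.07), Fos (1.88) and Fosb (0.69), and no neighbours in this order overlapped between libraries. At day 6 Junb (31.1 TPM) had moved above Jun (27.7) and Ier2 (25), and the libraries of Jun and Ier2 overlapped. At day 12 Jun (47.6 TPM) and Ier2 (46.6) again overlapped and stood above Junb (40.4), and Fosl2 (67.1) overlapped with Egr1 (65.8). Jund, Ier3 and Fosl2 held the upper places by mean, and Fosl1, Fos and Fosb the lower places, on all 3 days.

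The make-up of the FOS and of the JUN family, described here with no test, differed between the days. Fosl2 made up 88% ± 0.44 of the summed TPM of the 4 FOS genes at day 0, 76.2% ± 1.1 at day 6 and 79.2% ± 1.5 at day 12. Fosl1 took 9.08% ± 0.45, 19.2% ± 0.73 and 11.9% ± 0.28, and Fos 2.12% ± 0.47, 3.92% ± 0.35 and 7.63% ± 1.1. Fosb held 0.77%, 0.67% and 1.28%. The share of Fosl1 therefore peaked at day 6 and that of Fos at day 12, with libraries that did not overlap between any of the days for Fos. Among JUN genes, Jund held 85.9% ± 0.47, 73% ± 0.83 and 74.2% ± 1.7 of the summed TPM. Jun held 8.13% ± 0.43, 12.7% ± 0.39 and 13.9% ± 0.52, and Junb 5.94% ± 0.056, 14.3% ± 0.76 and 11.9% ± 1.2. Junb thus overtook Jun at day 6 but not at day 12. The summed TPM was 88.7 ± 2, 76.1 ± 1.4 and 84.7 ± 3.2 for FOS genes and 273 ± 10.1, 218 ± 8.7 and 343 ± 19.6 for JUN genes. In CPM the FOS sum was 388, 289 and 287, so that whether it recovered by day 12 depends on the unit. These are shares of mRNA and say nothing of protein.

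**Figure D3:**
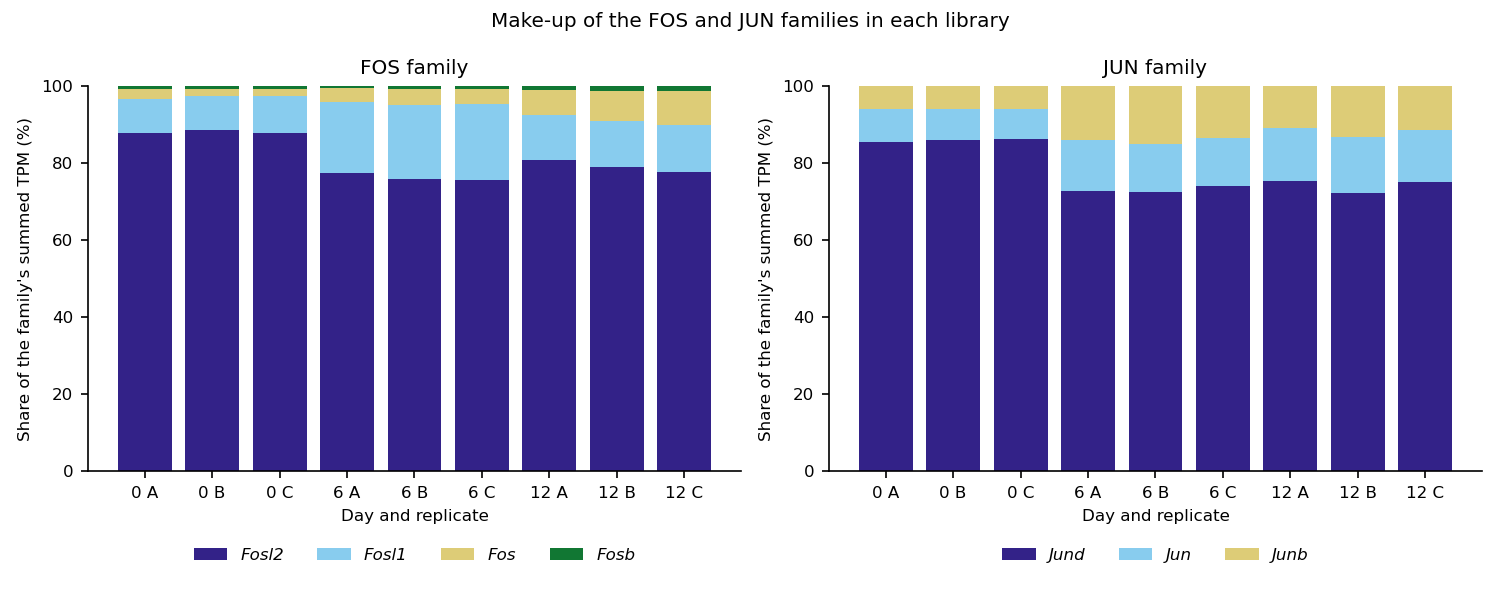
Share of each gene in the summed TPM of the FOS family and of the JUN family (vertical axes, percent) as stacked bars, 1 for each of the 9 libraries (horizontal axes, day and replicate). Fosl2 and Jund hold the largest shares on all days, and Fosl1 and Junb have their largest shares at day 6.

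Libraries of the same day differed more in several members than in genes of like level. The pooled within-day SD of log2 CPM was 0.14 for Ier2, beside a median of 0.054 for the 500 tested genes nearest to it in level. It was 0.099 for Egr1 beside 0.04, 0.083 for Jun beside 0.045, 0.069 for Jund beside 0.037 and 0.2 for Fos beside 0.12. Ier3 (0.053 beside 0.045) and Fosl2 (0.045 beside 0.038) were closer to their neighbours in level, and Fosb (0.15 beside 0.19) was below them. At days 0 and 12 the same library was the highest of its day for most members. At day 6 replicates A, B and C were highest for 3, 4 and 3 members. Day 0 replicate A was the highest of its group for 7 members (Fos, Jun, Junb, Jund, Egr1, Ier2 and Ier3), and day 12 replicate B for 7 (Fosb, Fosl1, Jun, Junb, Egr1, Ier2 and Ier3). Day 12 replicate B is also the library whose mitochondrial share stood apart.

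Fos had the widest range of group means of all members (1.42 on the log2 scale). Of 13264 protein-coding genes outside the set, the 5 whose centred log2 CPM lay closest to that of Fos over the 9 libraries were Acad12 (Euclidean distance 0.572), Ccn1 (0.575), Ccn2 (0.598), 2510009E07Rik (0.633) and Btg2 (0.652). Ccn1 and Ccn2 encode matricellular proteins and Btg2 an antiproliferative protein, all known as immediate early genes. Ccn1 stood at 203, 216 and 527 CPM at days 0, 6 and 12, Ccn2 at 96.3, 133 and 233, and Btg2 at 45.9, 63.3 and 99.6. Acad12 stood at 2.79, 3.7 and 6.55 CPM and 2510009E07Rik at 0.3, 0.45 and 0.81. All 5 were highest at day 12, like Fos, which follows from how they were picked. The likeness is a description over 9 libraries of 3 groups.

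The genes around AP-1 were examined in 5 lists, with counts and medians only. The lists share some genes, such as Dusp1, Nab2 and Atf3, so their counts are not independent of one another. Between day 0 and day 6, 33.5% of all genes tested rose and 31.4% fell. Other immediate early genes rose in 30 and fell in 13 of 45 tested, with a median log2 fold change of 0.43 beside 0.022 for all genes. Reported AP-1 target genes rose in 20 and fell in 7 of 28 (median 0.56). Feedback inhibitors of ERK and AP-1 signalling rose in 12 and fell in 4 of 21 (0.3). Kinases and serum response factor components that act on AP-1 rose in 12 and fell in 7 of 33 (0.045), and other dimer partners rose in 7 and fell in 5 of 18 (0.057). The shares that rose in the last lists, 36.4% and 38.9%, lie near that of all genes, and those of the other lists were 66.7%, 71.4% and 57.1% in the order given.

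From day 6 to day 12 the lists divided, and the division depends on the scale. With TMM scaling, immediate early genes rose in 21 and fell in 11 (median 0.097), dimer partners rose in 5 and fell in 6 (-0.04) and feedback inhibitors rose in 6 and fell in 8 (-0.036). Kinases and serum response factor components rose in 5 and fell in 15 (-0.093), and AP-1 targets rose in 6 and fell in 13 (-0.19). Of all genes tested, 22.6% rose and 22.7% fell, with a median of 0.0084. On log2(TPM + 1) with limma, the numbers higher and lower were 30 and 2 for immediate early genes, 9 and 1 for partners, 12 and 2 for inhibitors, 14 and 2 for kinases and 11 and 8 for targets. Over all genes the share of calls that were higher was 50% with TMM, 60.5% under upper-quartile scaling and 90.1% on log2(TPM + 1). The members themselves had 8 higher and 1 lower with TMM and upper-quartile scaling and 9 and 1 on log2(TPM + 1). Of the members' calls, 88.9% were thus higher with TMM and upper-quartile scaling. On log2(TPM + 1) the share was 90%, no different from the 90.1% of all genes.

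Against day 0, day 12 was higher for 33 and lower for 10 of 45 immediate early genes (median 0.61). It was higher for 20 and lower for 5 of 28 AP-1 targets (0.42), and for 12 and 4 of 21 feedback inhibitors (0.19). It was higher for 8 and lower for 7 of 18 partners (0.048). For kinases and serum response factor components the numbers were 10 and 14 of 33 (-0.051). Of all genes tested, 34.7% were higher and 31.7% lower, with a median of 0.025. On log2(TPM + 1), where 81.4% of all calls were higher in place of 52.3%, the numbers were 37 and 5, 23 and 4, 19 and 2, 12 and 2, and 21 and 3 in the same order.

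**Figure D4:**
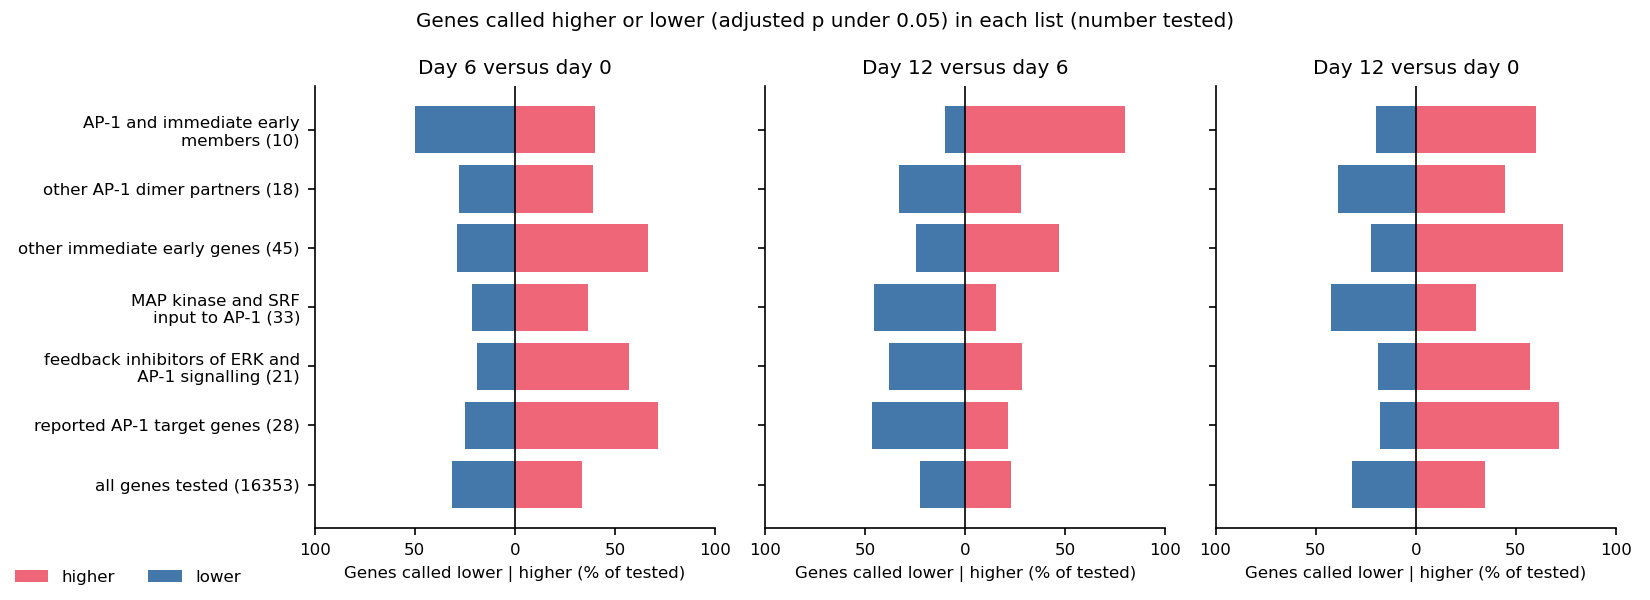
Percent of tested genes called higher (right) or lower (left) at adjusted p under 0.05 in the members, in 5 lists around AP-1 and in all genes tested, for the 3 comparisons (edgeR, TMM). The members have 80% higher and 10% lower between day 12 and day 6, beside 22.6% and 22.7% of all genes.

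Among dimer partners, Maf, which can pair with Fos and Jun, rose 10.4-fold to day 6, from 21.7 ± 1.5 to 226 ± 6 CPM (edgeR, adjusted p = 6.47e-17), and fell to 150 ± 7.4 at day 12 (adjusted p = 5.09e-08). Atf3, a stress-induced repressor that pairs with Jun, went the other way: it fell 3.46-fold to day 6, from 65.2 ± 2.9 to 18.8 ± 1.2 CPM (adjusted p = 2.55e-13), and rose 2.04-fold to 38.5 ± 2.3 (2.63e-09). Atf5 fell from 110.0 ± 4.7 to 77.4 ± 3.5 and rose to 119 ± 1.6 CPM. Nfe2l2, the NRF2 gene of the oxidative stress response, stood at 85.6 ± 0.75, 122 ± 3.7 and 112 ± 1.4 CPM. Atf3 and Atf5 thus had their lowest level at day 6, as Jund, Fosb, Ier2 and Ier3 did, and Maf and Nfe2l2 their highest, as Fosl1 did.

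Among the other immediate early genes named by the rule, Id1, an inhibitor of basic helix-loop-helix factors, rose from 23.1 ± 1.4 to 96 ± 3.4 CPM and then fell to 82.5 ± 4.4. Nab2, a corepressor of Egr1, went from 34.1 ± 1.2 to 108 ± 1.9 and 100.4 ± 4 CPM, a 3.17-fold rise to day 6 (edgeR, adjusted p = 6.71e-15), with a small fall after it (adjusted p = 0.0222). Zfp36l2, which promotes decay of AU-rich mRNAs, stood at 77.8 ± 0.97, 220 ± 3.4 and 162 ± 6.7. Ier5 stood at 37.5 ± 1, 89.2 ± 1.7 and 85.9 ± 0.78 CPM, and the last step was not called (adjusted p = 0.156). Errfi1, a feedback inhibitor of the EGF receptor, dipped from 146 ± 6 to 65.8 ± 1.7 and came back to 138 ± 5.3. Ccn1 made nearly all of its rise after day 6, by 2.44-fold (1.29 ± 0.037, adjusted p = 2.53e-12). Egr2 and Egr3, paralogs of Egr1 named here after their values had been seen, rose at both steps, from 0.74 ± 0.16 to 3.13 ± 0.22 and 4.66 ± 0.84 CPM and from 1.19 ± 0.17 to 2.56 ± 0.24 and 3.79 ± 0.57. Their log2 fold changes to day 6 were 2.08 ± 0.17 and 1.1 ± 0.15 (edgeR, adjusted p = 3.84e-08 and 1.07e-05), where Egr1 had -0.13.

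Feedback inhibitors also changed at different steps. Dusp6 and Dusp4, phosphatases that remove the activating phosphates of ERK, rose to day 6 and then did not pass the test. Dusp6 stood at 20.3 ± 2.4, 85 ± 3.9 and 79.9 ± 5.7 CPM (4.16-fold to day 6, edgeR adjusted p = 7.72e-13), and Dusp4 at 7.35 ± 0.21, 21.1 ± 0.59 and 22 ± 0.93 (2.87-fold, 9.43e-13). Dusp1, an immediate early phosphatase of JNK and p38, instead fell from 99 ± 10.7 to 80.5 ± 3.4 and rose 1.84-fold to 148 ± 4.5 (adjusted p = 2.36e-08), lowest at day 6 and highest at day 12 like Ier3 and Ier2. Dusp8, another phosphatase of JNK and p38, stood at 18.3 ± 0.98, 7.59 ± 0.76 and 12.7 ± 0.42 CPM. Fbxw7, the ubiquitin ligase subunit that marks Jun for decay, stood at 37.8 ± 0.94, 55.2 ± 1.7 and 43.2 ± 0.62.

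Of the kinases, Mapk3 (ERK1) rose 1.59-fold to day 6 and was not called after it (80.1 ± 2.3, 127 ± 1.1 and 122 ± 2.8 CPM), and Map3k8, which activates ERK downstream of inflammatory receptors, rose 3.37-fold from 1.64 ± 0.12 to 5.53 ± 0.32 and fell to 2.49 ± 0.16. Mapk8 (JNK1) fell at both steps, from 50.6 ± 1.5 to 38.8 ± 1.6 and 31.5 ± 0.71 CPM, and so did Braf, from 65.1 ± 2.2 to 53.9 ± 4.4 and 43.1 ± 1.8. Mapk11 (p38 beta) stood at 29.6 ± 0.57, 15.9 ± 0.48 and 20.2 ± 1.3. Rps6ka3, an ERK-activated kinase, stood at 146 ± 2, 152 ± 2.5 and 114 ± 5.7, and Mrtfa, an actin-regulated coactivator of serum response factor, at 109 ± 0.8, 132 ± 1.8 and 112 ± 3. The mRNA of a kinase does not show its activity.

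Reported AP-1 targets had differing courses. Ccl2, a monocyte chemokine, rose 31.3-fold from 4.56 ± 0.25 to 142 ± 12.2 CPM at day 6 (edgeR, adjusted p = 1.84e-17) and stood at 87.8 ± 1.6 at day 12. Spp1 (osteopontin) went from 732 ± 6.6 to 2252 ± 53 and 1942 ± 55, and Cd44, the hyaluronan receptor, from 113 ± 0.93 to 191 ± 2.9 and 136 ± 3.6. Ccl2, Spp1 and Cd44 all peaked at day 6, as Fosl1 did. Plau, the urokinase gene, had the opposite course, at 239.6 ± 2.7, 112 ± 3.1 and 259 ± 6.4 CPM, falling 2.14-fold to day 6 (adjusted p = 1.30e-13) and rising 2.31-fold after it (8.65e-13). Mt2, a metallothionein, fell at both steps, from 138 ± 7.4 to 86.6 ± 2.4 and 49.6 ± 2.3.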

How the data were processed

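RNA-seq of polyadenylated RNA from 9 libraries was analysed. The authors deposited unnormalised whole-number counts and TPM for each gene. The build GRCm38 and the tools STAR 2.7.8a, RSEM 1.3.3, cutadapt 2.3 and FastQC 0.11.8 are named per the submitters' processing notes. The role of each, the strand setting and the annotation release were not given in the sources used here. Counts from RSEM would be estimates, rounded before deposit. The labels give 2 days of 4-hydroxytamoxifen in 1 place and 6 days of depletion in another.

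A further 4 transgene entries (0.00204% to 0.00284% of counts) were left out. Counts were filtered with filterByExpr, scaled by TMM and tested with the quasi-likelihood F test of edgeR 4.0.16 (R 4.3.3), two-sided, in 1 fit of all 9 libraries, with Benjamini-Hochberg adjustment over 16353 genes. SEs follow from the F statistic. Log2 CPM used a prior count of 2. The fit was tested on simulated counts. Alternatives were DESeq2 1.42.0, limma 3.58.1 on log2(TPM + 1) and log2(TPM + 0.1), other scaling and filters, and leaving out each library. Positions, overlaps and exons are from GENCODE M21. Promoters are from RefSeq.

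The members and lists were chosen with earlier results of these data known. Named genes are all members, the 3 genes of each list with the smallest adjusted p in each comparison (5 CPM or more on average in the higher group), and the 5 nearest to the member with the widest range. A gene that the rule gave is not reported here. Depth limits Fos and Fosb most.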

Additional observations from a re-analysis of the deposited data

How the results depend on the processing

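Across the members' log2 fold changes in 3 comparisons, each under 17 alternative settings, 477 values stayed on their side of the threshold, 13 lost their call, 16 gained one and 4 turned direction on the TPM scales. Among the 477, the uncalled difference of Fosl2 between day 12 and day 6 also changed sign with upper-quartile factors (0.033) and without day 12 replicate C (0.032). The 4 were Fosl2 between day 12 and day 6 (0.21 on log2(TPM + 1) and 0.21 on log2(TPM + 0.1), limma adjusted p = 0.00187 and 0.00177) and Jund between day 12 and day 0 (0.12 on both, adjusted p = 0.109 and 0.104), where the median of all genes lay 0.16 to 0.25 above 0; the cause was not tested. The number of members lower at day 12 than at day 0 was 1 in place of 2 with upper-quartile factors, on both TPM scales, without day 0 replicate A and without day 12 replicate B. Members higher at day 12 than at day 0 numbered 8 in place of 6 with upper-quartile factors and on both TPM scales, since Fosb and Fosl1 were then called (adjusted p = 0.049 and 0.0317 with upper-quartile factors, and smaller on TPM). Over all genes, 7998 (log2(TPM + 1)) and 7927 (log2(TPM + 0.1)) rose from day 6 to day 12 and 878 and 873 fell, in place of 3702 and 3706. Day 12 was below day 0 for 1939 and 1965 in place of 5186, and above it for 8529 on log2(TPM + 0.1) in place of 5675.

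With each library left out, members called higher and lower numbered 3 to 4 and 4 to 6 (day 6 against day 0), 7 to 8 and 1 to 1 (day 12 against day 6), and 6 to 7 and 1 to 2 (day 12 against day 0). Same-letter replicates did not deviate together (r from -0.083 to 0.078 over 9 pairs, across genes). Pairs with different letters gave -0.11 to 0.095 over 18 pairs. Correlations of this kind cannot show whether a letter marks a shared culture or run. With the replicate block, 4 and 5, 8 and 1, and 6 and 2 members were called, as without it. By CPM in place of TPM, Fosl2 held 96.5% of the FOS sum and Jund 78.4% of the JUN sum at day 0. Depth limits Fosb, with group means of 1.2 to 2.2 CPM.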
